A study of Sus scrofa with 12 samples.

Results

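The inhibin, activin and follistatin system was followed here through 10 genes in 12 whole left ovaries, each from one gilt, a young female pig (Sus scrofa). Each gene was found by its symbol in the deposited expression table. Of 29150 loci in the table, 17 carried one of the 10 symbols, and each symbol was represented by its locus with the highest mean count. The gilts were full-sibling New French Yorkshire animals in which estrus detection began at 165 days of age. The 6 ES gilts had shown consecutive estrus cycles and were killed during the third estrus, while the 6 NES gilts were sisters in which no estrus was seen. The sources used here give neither the age at slaughter nor the follicular stage of the NES ovaries. Whole ovaries were used, so a level is an average over follicles, luteal tissue, stroma and vessels, and fewer cells of a type cannot be told apart from less RNA per cell.

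Inhibins and activins are dimeric hormones built from shared subunits. An alpha subunit (INHA) joined to a beta subunit (INHBA or INHBB) makes inhibin A or inhibin B, and beta subunits joined to each other make activins. Granulosa cells of growing follicles are the main ovarian source; inhibin lowers FSH secretion by the pituitary, and activin acts locally on follicle cells. Follistatin (FST) and the related FSTL3 bind activin and keep it from its receptors. Activin binds the type II receptors ACVR2A and ACVR2B, which recruit type I receptors such as ACVR1B and signal through SMAD2, SMAD3 and SMAD4. TGFBR3 (betaglycan) is a co-receptor that helps inhibin compete for the type II receptors.

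Libraries held 58140547 to 68961955 counts, of which 44384 to 283163 fell on the 10 genes. Levels are the deposited FPKM, counts scaled by a length and by library depth. Which length was used for a gene is unknown, and it need not be that of a transcript. Counts per FPKM were 162 for INHA, 763 for FSTL3 and 2543 for TGFBR3. Orders of genes, shares and the size of ratios depend on these lengths and are tentative. The group difference in a ratio of a gene to another gene does not, if each length was the same in all libraries. Differences between groups are log2 values, ES minus NES, fitted to the counts by the quasi-likelihood method of edgeR, with the standard error (SE). A difference was called where its adjusted p was under 0.05, with Benjamini-Hochberg adjustment over the 20421 loci whose mean FPKM reached 0.5. All 10 genes passed that filter. Of the 10 loci, 9 overlapped the entry of the same symbol in RefSeq's gene table of the build Sscrofa11.1.

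In ES ovaries the beta B subunit INHBB and the activin-binding protein FST stood lower than in NES ovaries, by mean FPKM 3.87 and 4.32 times as high in NES, while INHA was more variable and INHBA was similar. FST had the largest difference of the 10 and was the 1 gene whose groups did not overlap. All 6 of its ES values lay below all NES values, as at 1.72% of all loci tested, and none of the 10 genes lay wholly above, as 0.264% of loci did. The balance of the beta subunits differed between the groups: within an ovary, INHBB was below INHBA in all 6 ES libraries and above it in 5 of 6 NES libraries. None of the 10 genes was called by edgeR (0 of 10), and 5 of 10 had an unadjusted p under 0.05, with 3 lower and 2 higher in ES. Over all loci tested, edgeR called 0.945%, and 16.3% had an unadjusted p under 0.05 (6.79% lower, 9.5% higher). DESeq2 called 2 of the 10 genes, FST and INHBB, against 5.22% of all loci, and limma on log2(FPKM + 0.5) called 1, FST, against 1.65%. The median log2 difference was 0.14 over the 10 genes and 0.04 over all loci tested.

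**Figure D1:**
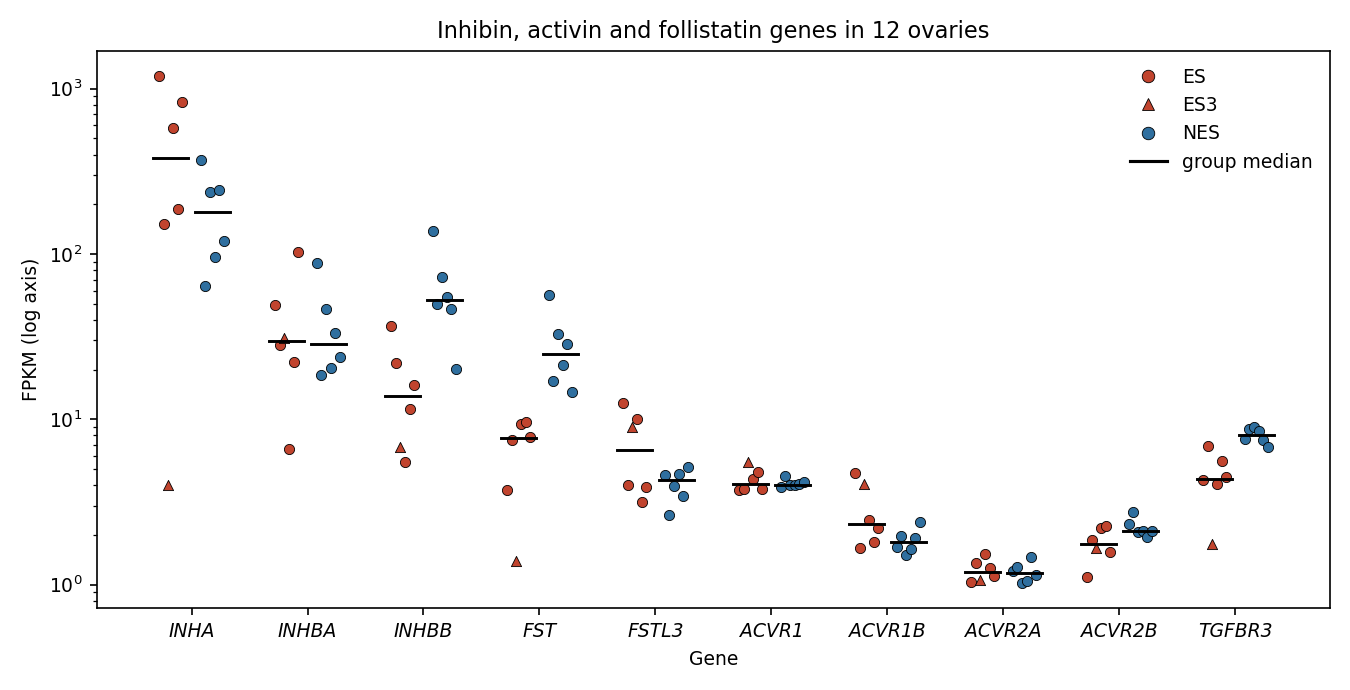
FPKM (log axis) of the 10 genes in each of 6 ES (red) and 6 NES (blue) ovaries, with the group median as a bar and ES3 as a triangle. FST is the gene whose groups do not overlap, at 1.38 to 9.68 FPKM in ES and 14.6 to 56.5 FPKM in NES, and INHA in ES3 lies at 3.99 FPKM.

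INHA, the subunit found only in inhibins (MSTRG.9279, chromosome 15, 121582044 to 121586845 on the plus strand of Sscrofa11.1), was the most abundant gene of the system. In ES its FPKM ranged from 3.99 through a median of 383 to 1193, and in NES from 64.5 through 178 to 371. The 3 ES ovaries ES1, ES4 and ES6 lay above every NES ovary, ES2 and ES5 lay within the NES range, and ES3 lay below every other library. It averaged 491 ± 461 FPKM in ES against 189 ± 116 in NES (SD over 6 libraries each). ES exceeded NES by a log2 difference of 1.51 ± 0.87 (SE; edgeR adjusted p = 0.412), and 0.37 with limma on log2(FPKM + 0.5), a scale on which ES3 weighs more. Highest and lowest ES ovaries differed 299-fold, compared with 5.76-fold in NES.

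INHBA, the beta A subunit (MSTRG.11305, chromosome 18, 52884631 to 52905213, plus strand in the deposited table; RefSeq's table lists the symbol on chromosome 12), ranged from 6.66 through 29.7 to 103 FPKM in ES and from 18.5 through 28.6 to 88.2 FPKM in NES. The highest ES ovary was ES6 and the lowest ES4, and the groups overlapped over most of their range. Averages were 40.2 ± 33.8 and 38.5 ± 26.5 FPKM (SD over 6 libraries each). Its log2 difference of 0.16 ± 0.55 (edgeR adjusted p = 0.916) had no stable direction, since it was -0.34 without ES6, -0.10 with the replicate block and -0.14 with limma on log2(FPKM + 0.5).

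INHBB, the beta B subunit (MSTRG.8568, chromosome 15, 30996208 to 31004757, minus strand), ranged from 5.48 through 13.8 to 36.7 FPKM in ES and from 20.1 through 52.6 to 137 FPKM in NES. The 4 ovaries ES3, ES4, ES5 and ES6 lay below every NES ovary, and 5 of 6 NES ovaries lay above every ES ovary. The groups overlapped through ES1 and ES2 on one side and NES6 on the other. It averaged 16.5 ± 11.6 FPKM in ES against 63.6 ± 39.8 in NES (SD over 6 libraries each), with a log2 difference of -1.82 ± 0.52 (edgeR adjusted p = 0.118). It was called by DESeq2 (adjusted p = 0.00810) and by edgeR without ES1, where the log2 difference was -2.30 (adjusted p = 0.0439). Over 24 alternative analyses the difference stayed between -2.30 and -1.46, with adjusted p from 0.00810 to 0.249. A second INHBB locus (MSTRG.8567, chromosome 15, 30988138 to 31063734, minus strand), which spans the first, had few counts (mean 109) and a log2 difference of -1.49 ± 0.71 (edgeR adjusted p = 0.324).

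Because counts of INHBB and INHBA come from the same library, their ratio in an ovary does not depend on scaling between libraries. The FPKM ratio of INHBB to INHBA ranged from 0.157 through 0.629 to 0.823 in ES and from 0.842 through 1.56 to 2.71 in NES. The groups did not overlap, but the gap between ES4 (0.823) and NES6 (0.842) was narrow. On the log2 scale the mean ratio was -1.15 ± 1.03 in ES and 0.73 ± 0.64 in NES (SD, n = 6 each), a difference of -1.88 ± 0.50 (SE), or 3.68 times higher in NES. The exact two-sided permutation test over all divisions of the 12 libraries into 2 groups of 6 gave p = 0.00216, the smallest it can give, and 0.0130 adjusted over the 6 ratios computed. With any 1 library left out the difference was -2.07 to -1.57 (adjusted p = 0.00649 to 0.0390, exact permutation test), and without ES3 and ES6 together it was -1.24 (0.0286). Of 18 alternatives 17 passed, the exception being the replicate block (adjusted p = 0.188, exact sign-flip test). The ratios were chosen with earlier results of these data known, which these p-values do not take into account.

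Ratios of INHA to the beta subunits moved with single libraries, ES3 and ES4 among them. INHA over INHBB ranged from 0.586 through 24.4 to 105 in ES and from 1.28 through 2.98 to 5.95 in NES. ES1, ES2, ES4, ES5 and ES6 (6.90 to 105) lay above every NES ovary and ES3 (0.586) below every one. The log2 difference was 2.37 ± 1.14 (SE, n = 6 each; exact permutation p = 0.0671, adjusted 0.134). Without ES3 it was 3.31 (exact permutation p = 0.00216, adjusted 0.00649). INHA over INHBA ranged from 0.128 through 8.23 to 86.7 in ES and from 3.49 through 4.84 to 7.31 in NES. Its log2 difference was 0.49 ± 1.30 (exact permutation p = 0.734, adjusted 0.734), 1.64 without ES3 (adjusted 0.00649, exact permutation test) and -0.25 without ES4. The ratio of INHA to both beta subunits together had a log2 difference of 1.33 ± 1.24 (exact permutation p = 0.333, adjusted 0.400), and 2.41 without ES3 (adjusted 0.00649, exact permutation test). ES3 was the lowest library in each of these ratios, so leaving it out widens the difference. Of 12 analyses with 1 library left out, only the 1 without ES3 passed. In these 12 the adjusted p (exact permutation test) was at most 0.255 for INHA over INHBB. It reached 0.972 for INHA over INHBA and 0.764 for INHA over both.

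The make-up of subunit RNA by FPKM, which depends on the lengths used, showed the same ovaries apart. INHBB made up 12.3 to 37.7% of the summed FPKM of the 3 subunits in NES and 0.929 to 16.2% in ES, with 5 of 6 ES ovaries below every NES ovary. INHBA had a narrow share in NES, 10.3 to 14.8%, and a wide one in ES, 1.13 to 74.3%. In ES3 INHBA was 74.3% and INHA 9.49% of the sum, whereas in ES4 INHA was 97.9%. In the other 4 ES ovaries INHA was 75.2 to 93.3%, and in NES 48.4 to 75.4%.

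**Figure D2:**
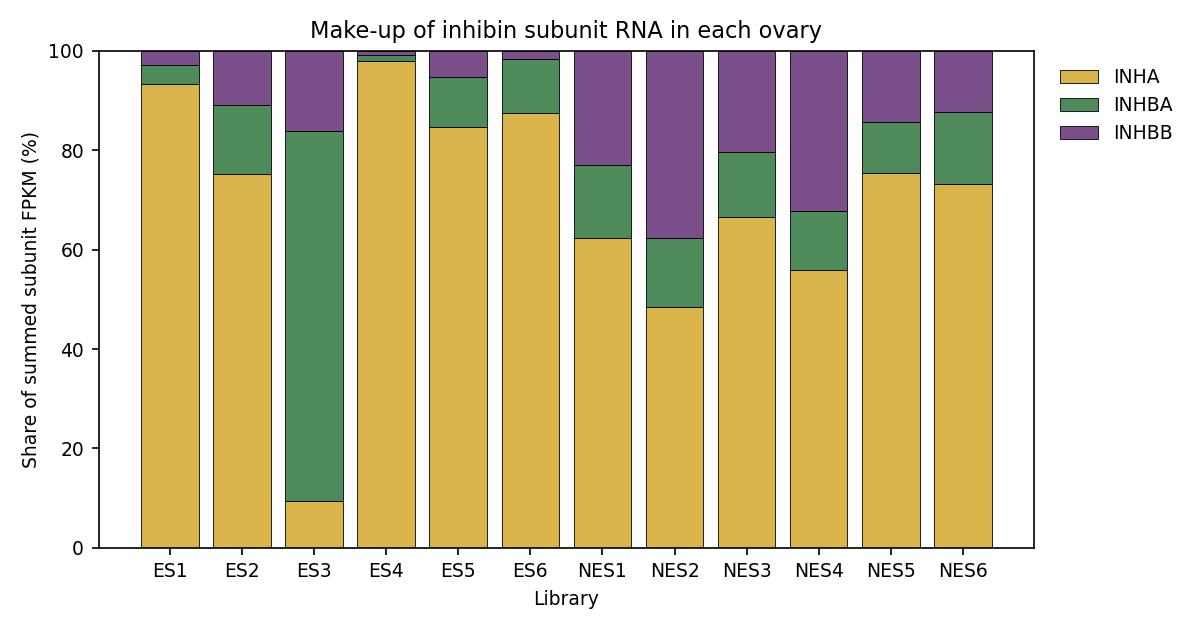
Stacked bars give the share (%) of INHA, INHBA and INHBB in their summed FPKM in each ES and NES library. INHBB is 12.3 to 37.7% in NES and 0.929 to 16.2% in ES, and ES3 is the library in which INHBA (74.3%) exceeds INHA.

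ES3 also stood apart in genes outside the system. Its summed FPKM of 5 macrophage markers was 334, against 4.73 to 13.6 in the other 11 libraries, and that of 5 theca markers was 2.35, against 23.0 to 267 elsewhere. ES6 had the highest summed FPKM of 6 surface and ductal epithelium markers, 51.6 against at most 2.87 elsewhere. The part of these other cells in the levels of the inhibin system was not tested.

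FST encodes follistatin (MSTRG.9644, chromosome 16, 32805780 to 32812725, plus strand). It ranged from 1.38 through 7.67 to 9.68 FPKM in ES and from 14.6 through 24.9 to 56.5 FPKM in NES. ES3 was lowest and NES1 highest, and every ES ovary lay below every NES ovary. It averaged 6.59 ± 3.32 FPKM in ES against 28.5 ± 15.3 in NES (SD over 6 libraries each). Its log2 difference was -2.03 ± 0.44, and the edgeR adjusted p of 0.0519 lay just above the threshold (unadjusted p = 5.42e-04). DESeq2 gave an adjusted p of 2.41e-04 and limma on log2(FPKM + 0.5) 0.0313. FST was called in 7 of 24 alternative analyses, among them edgeR without ES3 (adjusted p = 0.0494), without NES6 (0.0281) and with library totals in place of TMM factors (0.0332). The difference ranged from -2.19 to -1.74, and the highest adjusted p was 0.185, with the replicate block.

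Set against the summed RNA of the beta subunits, which go into both activin and inhibin, FST varied little among NES ovaries. The ratio of FST to INHBA plus INHBB was 0.249 to 0.359 in the 6 NES ovaries and 0.0366 to 0.775 in the 6 ES ovaries. The SD of the log2 ratio was 0.22 in NES and 1.72 in ES; this difference in spread was not tested. In ES4, the ovary with the least INHBA and INHBB, the ratio lay above every NES ovary, and in ES1, ES2, ES3 and ES6 below every one. The log2 difference of the means was -1.23 ± 0.71 (SE, n = 6 each; exact permutation p = 0.128, adjusted 0.192). Without ES4, the ES ovary that went against the difference, it was -1.76 (adjusted 0.0325, exact permutation test). That was the only 1 of 18 alternatives that passed, and with 1 library left out the adjusted p reached 0.373 (exact permutation test).

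**Figure D3:**
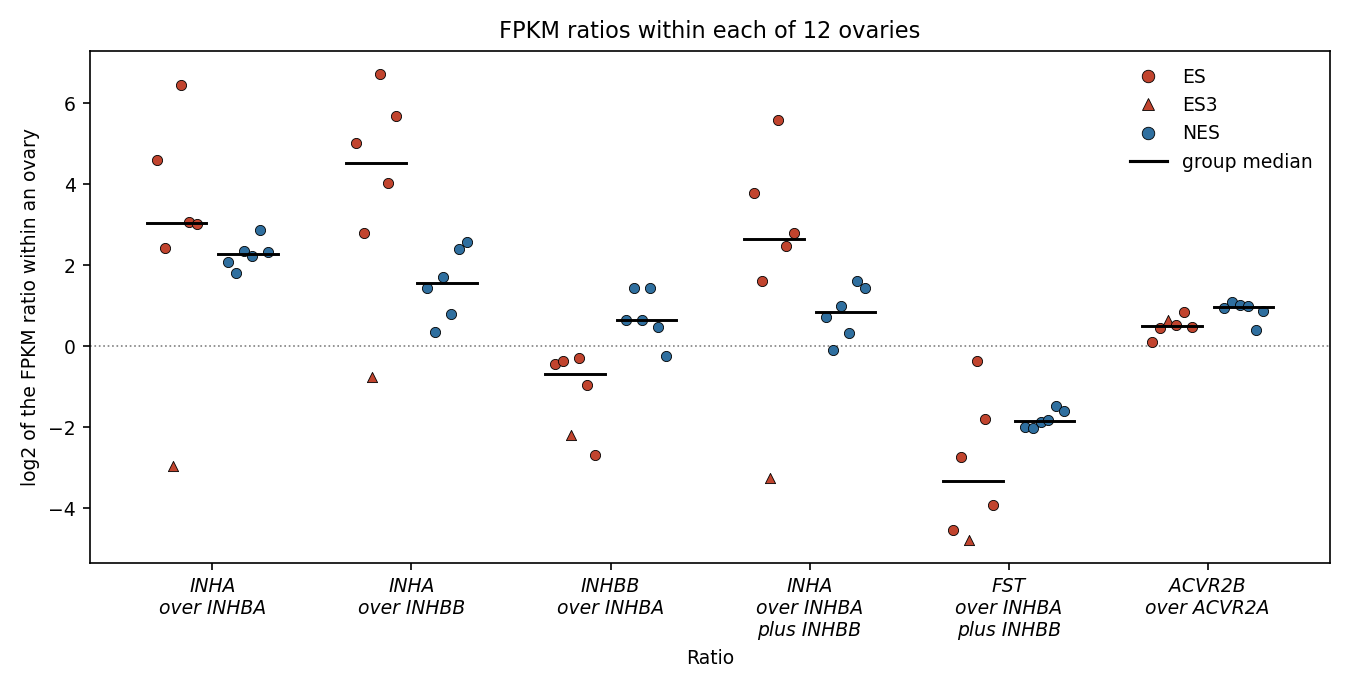
Log2 of 6 FPKM ratios within each ES (red) and NES (blue) ovary, with the group median as a bar and ES3 as a triangle. INHBB over INHBA is the ratio whose groups do not overlap (0.157 to 0.823 in ES, 0.842 to 2.71 in NES), and FST over both beta subunits is narrow in NES (0.249 to 0.359).

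FSTL3, the second activin-binding protein (MSTRG.12545, chromosome 2, 77652032 to 77662613, minus strand), differed in the other direction. It ranged from 3.18 through 6.53 to 12.6 FPKM in ES and from 2.65 through 4.27 to 5.13 FPKM in NES. ES1, ES3 and ES4 lay above every NES ovary, and the other 3 ES ovaries lay within the NES range. ES exceeded NES by 0.92 ± 0.35 on the log2 scale (edgeR adjusted p = 0.228; unadjusted p = 0.0222). In NES the mean level of FST, per length, was above that of FSTL3 (28.5 ± 15.3 and 4.08 ± 0.92 FPKM), while in ES both means were close (6.59 ± 3.32 and 7.12 ± 3.94 FPKM; SD, n = 6 each). By FPKM, FSTL3 exceeded FST in ES1, ES3 and ES4 and in no NES ovary. This order depends on the scaling by length. In counts, FSTL3 also exceeded FST in ES2 (3014 against 1854), ES6 (3048 against 2026) and NES6 (3851 against 3609).

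Of the type II receptors, ACVR2A (MSTRG.8430, chromosome 15, 4173797 to 4259962, minus strand) ranged from 1.03 to 1.53 FPKM in ES and from 1.03 to 1.47 FPKM in NES, with a log2 difference of 0.12 ± 0.13 (edgeR adjusted p = 0.687). Its locus shares 4612 bases with ORC4 on the opposite strand, which had 26142 counts on average against 578 for ACVR2A, so its value is less certain. At the short strandless second ACVR2A locus (MSTRG.8431, 49.4 counts on average) the log2 difference was -0.04. ACVR2B (MSTRG.5143, chromosome 13, 23237349 to 23276063, plus strand), the other type II receptor, ranged from 1.11 to 2.26 FPKM in ES and from 1.96 to 2.74 FPKM in NES. ES1, ES2, ES3 and ES6 lay below every NES ovary, and the log2 difference was -0.23 ± 0.14 (edgeR adjusted p = 0.447). A longer locus on the same strand (MSTRG.5140, named SLC22A13 and EXOG, 417 counts on average against 1966 for ACVR2B) covers it whole.

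The ratio of ACVR2B to ACVR2A was 1.07 through 1.41 to 1.79 in ES and 1.33 through 1.96 to 2.13 in NES. NES5 lay within the ES range, while the other 5 NES ovaries lay above every ES ovary. The log2 difference was -0.38 ± 0.14 (SE, n = 6 each; exact permutation p = 0.0303, adjusted 0.0909). It passed without NES5 (-0.47, adjusted 0.0130), without ES5 (-0.45, adjusted 0.0455) and without ES3 (-0.41, adjusted 0.0390; exact permutation tests). These were the only 3 of 18 alternatives that passed, and leaving out NES5 removes the NES ovary within the ES range. With 1 library left out the adjusted p reached 0.169, and over all alternatives 0.488 (exact permutation tests).

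Of the type I receptors, ACVR1B (MSTRG.16760, chromosome 5, 17314276 to 17350723, plus strand), which carries the activin signal to SMAD2 and SMAD3, ranged from 1.66 through 2.33 to 4.74 FPKM in ES and from 1.52 through 1.80 to 2.38 FPKM in NES. ES1 and ES3 were highest (4.74 and 4.05 FPKM), with ES4 (2.45 FPKM) just above NES6 (2.38 FPKM). This gave a log2 difference of 0.72 ± 0.27 (edgeR adjusted p = 0.224; unadjusted p = 0.0210), and 0.46 without ES1. ACVR1 (MSTRG.8790, chromosome 15, 64748644 to 64892420, minus strand), a type I receptor used mainly by bone morphogenetic proteins, was the steadiest member. It ranged from 3.76 to 5.49 FPKM in ES and from 3.91 to 4.51 FPKM in NES, with a log2 difference of 0.16 ± 0.10 (edgeR adjusted p = 0.455). A locus named ACVR1 on the opposite strand (MSTRG.8791, chromosome 15, 64823077 to 64849942) had a log2 difference of 0.04 ± 0.14 (edgeR adjusted p = 0.912).

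TGFBR3, the inhibin co-receptor (MSTRG.16360, chromosome 4, 125109966 to 125310783, plus strand), ranged from 1.75 through 4.38 to 6.86 FPKM in ES and from 6.83 through 8.06 to 8.99 FPKM in NES. Every ES ovary except ES2 lay below every NES ovary, and ES2 (6.86 FPKM) overlapped only with NES6 (6.83 FPKM). Averages were 4.51 ± 1.71 and 8.04 ± 0.85 FPKM (SD over 6 libraries each). Its log2 difference was -0.75 ± 0.24 (edgeR adjusted p = 0.158; unadjusted p = 0.00853), and -0.58 without ES3, in which TGFBR3 was lowest. The 4 further loci named TGFBR3 lie on the opposite strand within this locus and had log2 differences of -0.84 to -0.33, with edgeR adjusted p of 0.193 to 0.627. The libraries were strand-specific, but the strand setting of the counting is not given in the sources used here. It is therefore not known whether the counts keep apart the reads of a gene and of a locus on its other strand. For TGFBR3, 1 FPKM stood for 2543 counts, compared with 162 for INHA, so its level relative to other genes rests on the length used.

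Ordered by mean FPKM over the 12 libraries, INHA came first, followed by INHBB and INHBA, then FST, TGFBR3, FSTL3, ACVR1, ACVR1B, ACVR2B and ACVR2A. This order depends on the lengths used. By mean counts INHA also came first, but INHBA (22161) stood above INHBB (19108) and TGFBR3 (16085) above FST (4479). INHBB and INHBA had close means over the 12 libraries, 40.0 and 39.3 FPKM, although their order was not the same in ES and NES. In NES alone the order of the means was INHA, INHBB, INHBA and FST, and in ES it was INHA, INHBA, INHBB and FSTL3. For 8 of the 10 genes the SD of FPKM was larger in ES than in NES, the exceptions being INHBB and FST. This SD was not scaled by the mean, and the means of INHBB and FST were lower in ES. Highest and lowest ovaries differed 7.00-fold in ES and 3.86-fold in NES for FST, and 6.69-fold and 6.81-fold for INHBB.

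INHA and INHBA kept close company among NES ovaries. Pearson's r of log2(FPKM + 0.01) was 0.93 over the 6 NES libraries (exact permutation p = 0.00833, adjusted 0.05 over 6 values, which does not lie under the threshold). Spearman's rho was 0.94 (exact permutation p = 0.0167, adjusted 0.1), and r was 0.92 without NES1 and NES2, the libraries farthest from the median of INHA. Over the 6 ES libraries r was 0.10 (exact permutation p = 0.804, adjusted 0.896) and rho 0.37 (0.497, adjusted 0.564), with r of 0.19 without ES1 and ES3. The difference between the groups in this relation was not tested.

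INHBB and FST had an r of 0.89 in NES (exact permutation p = 0.0222, adjusted 0.0667) and a rho of 0.83 (0.0583, adjusted 0.175). Without NES1 and NES6 r was 0.51 over the 4 libraries left, too few to show what the relation rested on. The other values of r given with libraries left out are also over 4. In ES r was 0.07 (exact permutation p = 0.896, adjusted 0.896) and rho -0.31 (0.564, adjusted 0.564), and r was 0.78 without ES1 and ES4. INHA and INHBB had an r of 0.57 in NES (exact permutation p = 0.242, adjusted 0.483) and 0.49 in ES (0.353, adjusted 0.529), where leaving out ES1 and ES3 turned it to -0.41. Their rho was 0.37 (exact permutation p = 0.497, adjusted 0.564) and 0.43 (0.419, adjusted 0.564), and r in NES was 0.42 without NES1 and NES2. Values of a pair share their library and its scaling.

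**Figure D4:**
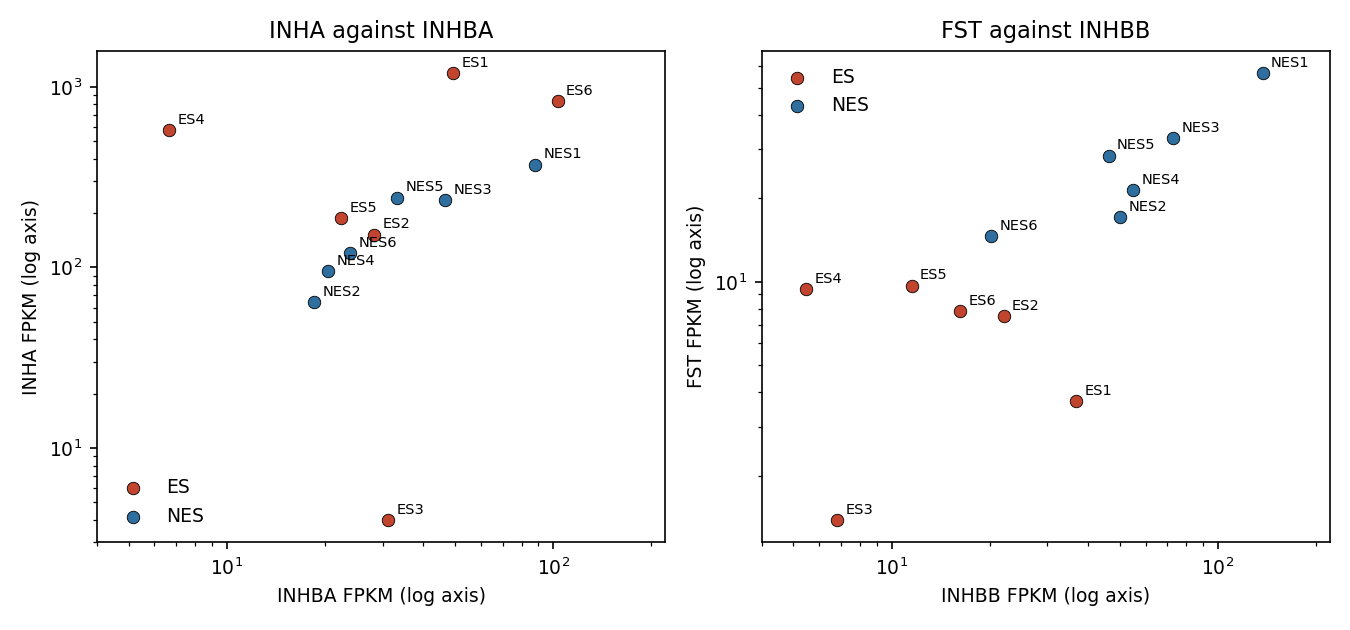
FPKM of INHA against INHBA (left) and of FST against INHBB (right), both axes log, with each of 6 ES (red) and 6 NES (blue) libraries labelled. The NES ovaries follow a line for INHA and INHBA (r = 0.93), which ES3 and ES4 leave on either side.

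Genes with the most similar profile over the 12 libraries differed between members. The measure was Pearson's r of log2(CPM + 0.5) among the 12692 named loci whose mean FPKM reached 1, and it includes the difference between the groups. Nearest to INHBB were 5 genes of DNA replication and cell division, POLE (r = 0.98), KIF18B (0.98), CDCA5 (0.98), UHRF1 (0.98) and CHAF1B (0.97), with log2 differences of -1.75 to -1.38. Nearest to FST were LRFN5 (0.96), NWD2 (0.96), EDA (0.95), MYEF2 (0.94) and CTC1 (0.94), of which CTC1, a telomere maintenance gene, fell in ES (log2 -0.84, edgeR adjusted p = 0.0390). No locus was called lower with the replicate block, without ES3 and ES6 together, or without any one of ES2, ES4, ES6 and NES1 to NES5. The call of CTC1 was thus lost in each of these settings. Nearest to INHA were FBN2, AMIGO2, PTGES, GSTA2 and RBBP7 (r of 0.91 to 0.94). Near INHBA were TMEM120A, DAPP1, FADS1 and YOD1 (0.90 to 0.94), genes with log2 differences of -0.19 to 0.15.

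Cell division markers differed in the same direction as INHBB and FST, and granulosa markers were mixed. All 5 cell division markers tested (TOP2A, CCNB1, BIRC5, CENPF and TTK) fell in ES, where 0.793% of all loci did. The call was lost for all 5 with the replicate block and without ES3 and ES6 together, and with 1 library left out between 0 and 5 of them were called. Their summed FPKM was 3.12 to 7.61 in ES and 8.07 to 40.0 in NES, with no overlap. Of 7 granulosa markers tested 1, IHH, fell (log2 -3.01 ± 0.61, edgeR adjusted p = 0.0420), a call that was lost with no filter, with the replicate block, without ES3 and ES6 together, and without any one of ES2, ES4, ES5, ES6 and NES1 to NES5. The summed FPKM was 33.6 to 140.5 in ES and 76.9 to 154 in NES. The FSH receptor FSHR had a log2 difference of -1.17 and the ovarian transcription factor FOXL2 one of -0.73 (edgeR adjusted p = 0.216 and 0.355), and in ES3 they were at 0.469 and 1.14 FPKM, the lowest of all libraries. Of the other 4, GJA1 had a log2 difference of -0.28, while the aromatase gene CYP19A1 had 1.43, NR5A2 0.28 and GATM 0.06 (edgeR adjusted p = 0.455 to 0.960). No marker with a locus in the table was at 0 in every library. AMH and HSD17B1 (granulosa) and MKI67 and CDK1 (cell division) had no locus under their symbol and were left out. So were HSD3B1 and LHCGR (luteal), CD68 (macrophage), NLRP5 (oocyte) and HBA1 (red blood cells). The part of granulosa cell number or of cell division in the values of INHBB and FST was not tested.

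The remaining lists gave the setting of the whole ovary as summed FPKM. Luteal markers (5 genes) were at 81.3 to 459.7 in ES and 32.0 to 119.5 in NES. The highest NES value was that of NES6, with the other NES libraries at 32.0 to 48.8. EdgeR called none of the 5, but 4 had an unadjusted p under 0.05 with higher values in ES, as 9.5% of all loci did. DESeq2 called 4 higher, against 5.22% of all loci called in either direction. Theca markers were at 2.35 to 267 in ES and 99.6 to 173 in NES. Of the 5 theca markers 3 fell, the hedgehog pathway genes GLI1 (log2 -1.94), PTCH1 (-1.86) and HHIP (-2.37; edgeR adjusted p = 0.0337 to 0.0387), where 0.793% of all loci did. None of the 3 was called with the replicate block, without ES3 and ES6 together, or without any one of ES2, ES4, ES6 and NES1 to NES5. The other theca markers, CYP17A1 and INSL3, had log2 differences of 2.00 and -1.01 (edgeR adjusted p = 0.383 and 0.495). Macrophage markers were at 6.50 to 334 and 4.73 to 13.6, epithelial markers at 1.11 to 51.6 and 0.346 to 1.25, and smooth muscle markers at 106 to 316 and 79.4 to 218. Endothelial markers were at 13.9 to 21.4 and 9.71 to 22.6, and oocyte markers at 4.99 to 11.9 and 6.94 to 13.3. The 2 red blood cell markers were at 0.204 to 1.92 and 0.231 to 1.26, with HBB at 0 in 8 libraries. The oocyte growth factor GDF9 had at least 2.18 FPKM in every library.

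Downstream of the receptors, 18 of 20 further pathway genes had a locus of their own and 14 passed the expression filter. EdgeR called none of the 14 in either direction, while 4 had an unadjusted p under 0.05 with higher and 2 with lower values in ES (9.5% and 6.79% of all loci). DESeq2 called 2 genes lower, SMAD2 and SMAD4, against 5.22% of all loci called, and limma on log2(FPKM + 0.5) called 1, SMAD2, against 1.65%. The median log2 difference of the 14 was 0.14, compared with 0.04 over all loci tested.

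SMAD2, which relays the activin signal to the nucleus, ranged from 3.00 through 3.55 to 5.38 FPKM in ES and from 5.03 through 7.08 to 10.4 FPKM in NES. The groups overlapped through ES5 alone on the ES side, and the log2 difference was -0.78 ± 0.19 (edgeR adjusted p = 0.0704). SMAD4, the shared partner of the receptor-activated SMADs, ranged from 5.27 through 6.07 to 6.91 FPKM in ES and from 7.18 through 7.77 to 9.58 FPKM in NES, with no overlap, as at the 1.72% of loci whose ES values lay wholly below NES. Its log2 difference was -0.33 ± 0.09 (edgeR adjusted p = 0.110). SMAD3, the other activin-responsive SMAD, had a log2 difference of 0.12 ± 0.13 (edgeR adjusted p = 0.687).

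SMAD7 and FURIN were both highest in ES3. SMAD7, a feedback inhibitor of the receptors, was at 6.76 FPKM in ES3 and at 1.38 to 2.54 FPKM in the other 11 libraries. Its log2 difference was 0.77 ± 0.31 (edgeR adjusted p = 0.240) and 0.32 without ES3. FURIN, a protease that matures precursors of this family, was at 13.0 FPKM in ES3. In ES1 (7.04 FPKM) and ES4 (7.06 FPKM) it also lay above every NES library (at most 4.82 FPKM). Its log2 difference was 0.77 ± 0.29 (edgeR adjusted p = 0.216) and 0.45 without ES3. Of genes under the filter, the type I receptor ACVR1C was listed at 0 in 9 libraries, and INHBC, a beta subunit made mainly in liver, in 11.

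**Figure D5:**
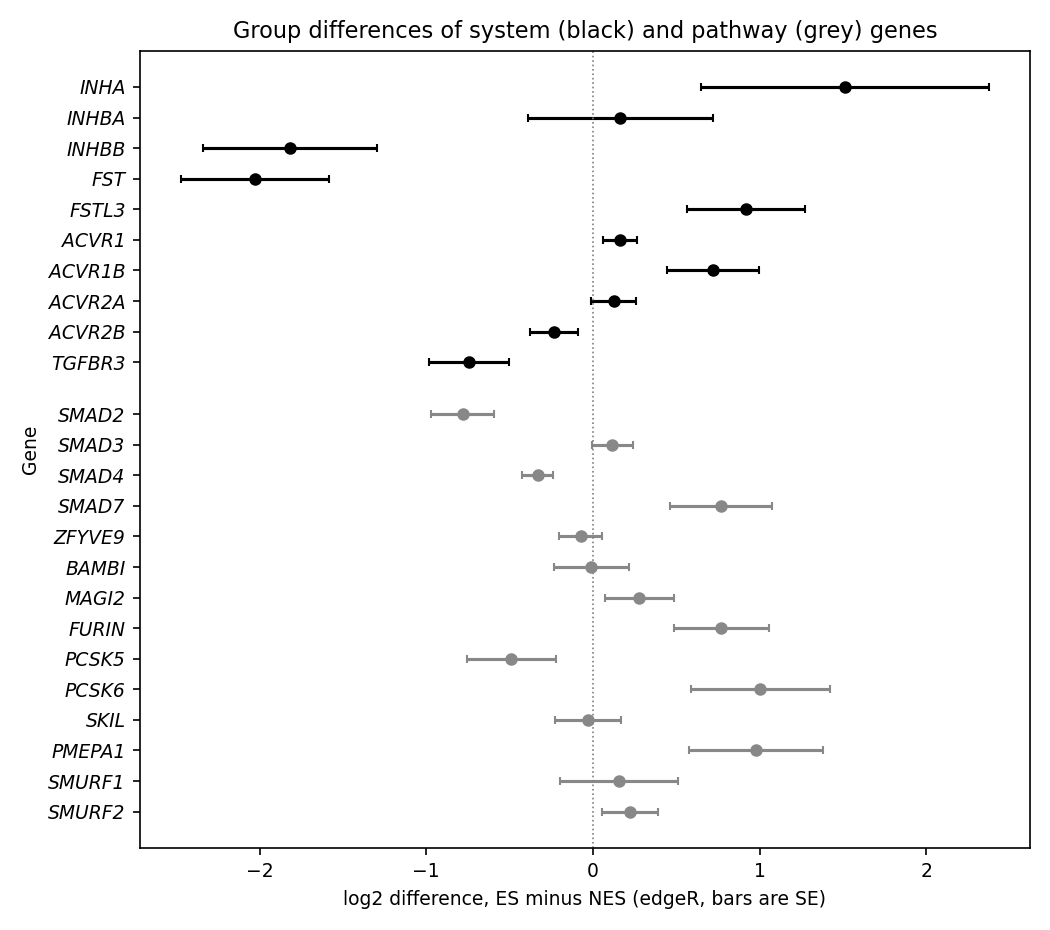
Log2 difference, ES minus NES, with its SE (bars, edgeR, 6 libraries each) for the 10 genes of the system (black) and 14 pathway genes (grey). FST (-2.03) and INHBB (-1.82) lie farthest to the left, and INHA (1.51) has the widest error.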

How the data were processed

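Ribosomal RNA-depleted, strand-specific total RNA libraries were made from each ovary, per the labels' protocols. HISAT2, TopHat, FastQC and cutadapt, with the build Sscrofa11.1, stand in the submitters' processing notes without versions. For the read counter, the strand option and the gene models, the sources used here give nothing. The deposited table holds a whole-number count and an FPKM value per locus and library, per the file headers. The authors' FPKM values were used as levels and in ratios (pseudocount 0.01).

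Counts were tested with edgeR 4.0.16 (TMM factors, no covariate, mean FPKM of 0.5 or more; R 4.3.3). DESeq2 1.42.0 and limma 3.58.1 were alternatives, beside other scaling, filters, loci, the replicate block and each library left out. Each edgeR SE was taken as the absolute difference over the root of F. Ratios were tested by exact permutation in Python 3.11.15. Unnamed loci took 4.47 to 6.60% of the counts. In counts simulated for ES against NES over 20421 loci, 50 loci were changed at each of 4 sizes, and edgeR found 46 of the 4-fold, 43 of the 3-fold, 19 of the 2-fold and 1 of the 1.5-fold changes, beside 3 false calls. The simulation gave a locus the same relative spread in both groups. INHA, in contrast, ranged 299-fold in ES and 5.76-fold in NES, so these rates need not hold for the genes studied here.

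Each library is a separate gilt. The members, ratios and lists were chosen with earlier results of these data known. Named were all 10 members, pathway genes called or among the 4 smallest p-values, and for INHA, INHBA, INHBB and FST the 5 loci most alike, of which 1 is not reported here. No sequence was used here.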

Additional observations from a re-analysis of the deposited data

Results flagged for a closer look

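In the ratio of ACVR2B to ACVR2A, the lowest NES library, NES5, stood apart from the rest of its group: its log2 ratio was 0.41, the next lowest was 0.87, and the gap was 0.68 of the whole range of the group. It was found by Dixon's test among 32 groups of 6 libraries examined (10 genes and 6 ratios in each group), and chance flags about 1 in 20 groups.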

How the results depend on the processing

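Calls in these libraries depended on the setting. EdgeR called 193 of all loci, 364 with library totals only, 28 with no filter, 2 without ES3 and ES6 together (chosen after seeing the data) and 0 to 417 with 1 library left out. DESeq2 called 1065 (465 higher, 600 lower), and limma on FPKM called 337, 334 and 319 with pseudocounts of 0.5, 0.1 and 1. Of the 10 genes, edgeR called 0, and 0 to 1 with 1 library left out; it called 1 with library totals only, DESeq2 2, and limma 1 with each of the 3 pseudocounts. The direction of INHBA turned with limma (-0.14, -0.14 and -0.13 for 0.5, 0.1 and 1), with the replicate block (-0.10), without ES6 (-0.34; -0.34 to 0.57 with 1 library left out, the highest without NES1) and without ES3 and ES6 together (-0.37). ACVR2A turned at its locus of highest FPKM (-0.036). The other 8 genes kept their direction in all 24 alternatives. The median log2 difference over all loci was 0.04 and became -0.07 with limma and a pseudocount of 0.1.

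Without ES3 and ES6 together the log2 differences of INHA over INHBA, over INHBB and over both were 1.86, 3.10 and 2.52 (adjusted p = 0.0190 for each, exact permutation test). For each of these ratios 2 of 18 alternatives passed, both of them without ES3. With 1 library left out the ranges were -0.25 to 1.64 for INHA over INHBA, 1.81 to 3.31 for INHA over INHBB and 0.65 to 2.41 for INHA over both. They were -2.07 to -1.57 for INHBB over INHBA, -1.76 to -0.88 for FST over both beta subunits and -0.47 to -0.30 for ACVR2B over ACVR2A.

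The title numbers are not said to mark sisters. A replicate block in edgeR left 0 loci called (2708 at an unadjusted p under 0.05), and INHBB over INHBA had an adjusted p of 0.188 at -1.88 (exact sign-flip p = 0.0312, the smallest that 6 pairs can give). Deviations of same-numbered libraries correlated at -0.07 to 0.29, so that not every pair passed 0.1, and 2 of 6 ES libraries correlated best with their own number.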
